A study of Mus musculus with 6 samples.

Results

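The genes described here encode nuclear subunits and assembly factors of respiratory complexes II to V and cytochrome c. They were measured by RNA-seq in cerebellum from male mice aged 6 weeks. Members were taken by symbol: Sdha to Sdhd, the Sdhaf genes, symbols starting with Uqc, Cyc1, Cycs, symbols starting with Cox and a digit, and symbols starting with Atp5. This gave 65 of the 24537 genes listed. Of these, 53 reached 1 FPKM on average over the 6 libraries and were tested. FPKM is the number of fragments of a gene scaled by its exon length and by the size of the library. The wild-type group (WT), labelled C57BL/6, had 3 libraries, and so had the group labelled Orl/BalbC, in which 1 copy of Reln is null (HET). Reelin, the product of Reln, is a secreted protein that guides migrating neurons to their layers. Since the strain label differs between the groups and is the same within each, genotype and strain cannot be told apart in any difference between them. Whether each library is a separate animal is not in the labels, so p-values measure the spread between these libraries, which may be technical. In the limma tests below, that spread is mostly pooled over genes of a like level.

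Reln stood at 0.834, 0.771 and 0.940 FPKM in WT replicates 1 to 3 and at 0.531, 0.509 and 0.580 FPKM in HET replicates 1 to 3, with no overlap between the groups. All 5 granule cell markers and all 5 Purkinje cell markers of the lists used here had a mean of at least 1 FPKM. Steps between low FPKM values gave approximate depths of 23160000 to 28720000 reads, from weak steps in which 27.6% to 31.8% of the low values lay within 0.1 of a whole read. Evenly spread values would also lie there in part, and taking the depth with the strongest steps raises this share by itself. WT replicate 2 and HET replicate 2 stood apart from the rest. Of all 6358 tested genes, 78.4% were lowest in WT replicate 2 and 56.3% were highest in HET replicate 2. Results on the members are therefore also given without both of these libraries. The choroid plexus markers, from a tissue that can be dissected with the cerebellum, had a summed level of 0.775 to 285 FPKM in WT and 3.58 to 163 FPKM in HET libraries.

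As background, complex II (succinate dehydrogenase) passes electrons from succinate of the tricarboxylic acid cycle to ubiquinone. Complex III (the cytochrome bc1 complex) passes them to cytochrome c, and complex IV (cytochrome c oxidase) to oxygen. Complexes III and IV pump protons, and complex V (ATP synthase) uses the returning protons to make ATP, on which neurons depend for ion pumping. All subunits of complex II are nuclear encoded. Complexes III, IV and V also hold subunits encoded in mitochondrial DNA, which are outside the rule and whose sequences the authors had filtered out.

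The 64 members that matched a gene of the GENCODE M21 annotation (build GRCm38, also called mm10) lay on 19 chromosomes, and no single cluster held them. A feature that some of them share is promoter sequence. Windows from 250 bases before to 50 bases after the start of each gene, from RefSeq on GRCm38.p6, were matched for 52 members. The letters GCGCANGCG, the core of the site of nuclear respiratory factor 1 (NRF1), occurred in 16 of the 52 windows (30.8%), against 7.03% of the windows of all 27025 genes. Those genes were not limited to ones expressed here. With 1 more C at the end it occurred in 13 (25%, against 5.19%). Each motif was searched on both strands. CCGGAAGT, the core of the site of GABPA (also called NRF2), occurred in 8 (15.4%, against 4.31%). AAGATGGCG, the core of the YY1 site, occurred in 4 (7.69%, against 1.64%). These 3 factors are known as regulators of nuclear genes for mitochondrial proteins. A match is a description of letters and not evidence of binding. 4 promoters are shown, over the 250 bases before the start, with the letters of NRF1 matches in capitals (overlapping matches on both strands count once). Sdhd and Uqcc2 are among the genes with the lowest unadjusted p below, Sdha holds 3 matches upstream of its start, and Cox6a1 holds 2 and encodes the ubiquitous partner of Cox6a2, described later. All are written 5′ to 3′ on the gene's strand, which is the minus strand for each.
Sdhd, chr9:50603850-50604099: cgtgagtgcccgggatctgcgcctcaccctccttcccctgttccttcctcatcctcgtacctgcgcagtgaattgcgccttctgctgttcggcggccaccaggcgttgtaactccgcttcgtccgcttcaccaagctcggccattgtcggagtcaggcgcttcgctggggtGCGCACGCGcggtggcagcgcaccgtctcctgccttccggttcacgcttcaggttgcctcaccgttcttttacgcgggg
Uqcc2, chr17:27133892-27134141: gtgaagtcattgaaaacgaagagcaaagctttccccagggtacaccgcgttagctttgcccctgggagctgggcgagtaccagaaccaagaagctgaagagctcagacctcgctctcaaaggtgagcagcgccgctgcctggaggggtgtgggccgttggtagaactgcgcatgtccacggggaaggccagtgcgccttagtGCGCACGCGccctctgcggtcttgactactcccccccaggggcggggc
Sdha, chr13:74350241-74350490: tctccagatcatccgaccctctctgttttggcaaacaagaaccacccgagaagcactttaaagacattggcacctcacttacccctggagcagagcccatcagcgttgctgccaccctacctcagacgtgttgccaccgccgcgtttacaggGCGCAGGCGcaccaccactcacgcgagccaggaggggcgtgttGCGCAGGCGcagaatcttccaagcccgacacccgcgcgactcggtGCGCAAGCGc
Cox6a1, chr5:115348959-115349208: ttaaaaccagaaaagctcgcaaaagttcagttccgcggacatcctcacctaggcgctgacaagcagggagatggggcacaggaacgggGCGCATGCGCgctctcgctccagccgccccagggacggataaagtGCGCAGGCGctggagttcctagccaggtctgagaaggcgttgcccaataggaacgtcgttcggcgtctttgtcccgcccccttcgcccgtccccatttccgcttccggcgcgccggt

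Another feature of some members was a close neighbour on the other strand. Of the 64 matched members, 11 (17.2%) had a protein-coding gene starting head to head within 1000 bases, against 6.78% of the 21951 protein-coding genes. Sdhd and Timm8b, which encodes a chaperone of mitochondrial protein import, start 98 bases apart. Timm8b stood at 35.4, 30.0 and 31.1 FPKM in WT and at 32.6, 37.5 and 34.7 FPKM in HET libraries, which overlapped. Other pairs were Sdha with Ccdc127, 29 bases apart, Atp5c1 with Kin, 83 bases apart, and Atp5h with Kctd2, 166 bases apart. Kctd2 stood at 3.04, 2.86 and 2.98 FPKM in WT and at 3.26, 4.18 and 3.08 FPKM in HET libraries, without overlap, while its partner Atp5h overlapped.

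Across the members, levels differed far more between genes than between groups. In WT libraries the highest member was Atp5b, the catalytic beta subunit of complex V, at 159 ± 23.0 FPKM (SD, n = 3). Cox8a, a small structural subunit of complex IV, followed at 120 ± 17.1 FPKM (SD, n = 3). FPKM is scaled per length, which allows levels to be ordered between genes. Values of very short transcripts are uncertain, such as those of Atp5k with 371 bases and Cox8a with 550. Complexes IV and V held most of the members' summed FPKM, with 39.0% ± 0.59 (SD, n = 3) and 40.7% ± 0.35 in WT and 38.0% ± 1.5 and 41.3% ± 1.3 in HET libraries. Complex III held 13.2% ± 0.45 in WT and 13.6% ± 0.25 in HET (SD, n = 3 each), complex II 2.64% ± 0.28 and 2.93% ± 0.15, and cytochrome c 4.46% ± 0.065 and 4.18% ± 0.16. The members together made up 2.36% ± 0.12 of all summed FPKM in WT and 2.47% ± 0.26 in HET libraries (SD, n = 3 each), and the 10 highest members made up 59.8% and 59.0% of the members' sum.

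Within complex II, the WT levels of Sdhd (8.33 FPKM) and Sdha (7.47) overlapped between libraries, while Sdhb (4.58) and Sdhc (3.00) each lay below the one before without overlap. Complex III was led by Cyc1 at 34.0 FPKM, above Uqcrb at 23.6 without overlap, and Uqcrc2 was the lowest of the 9 subunits at 7.86 FPKM, without overlap. In complex IV, Cox8a lay above Cox5b (85.4 FPKM), Cox7c (80.8) and Cox6a1 (67.9), whose neighbours in that order overlapped. Cox4i1 came next at 50.5 FPKM, and Cox5a, at 5.0 FPKM, was the lowest of the 10 ubiquitous subunits. In complex V, Atp5b and Atp5a1 (88.6 FPKM), the subunits that alternate in the F1 head, led without overlap. They were followed by Atp5k, Atp5h and Atp5g1 at 52.7, 51.2 and 42.2 FPKM, neighbours that overlapped. Subunits that occur once per complex thus differed in FPKM by over 10 times, as for Cox8a and Cox5a.

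**Figure D1:**
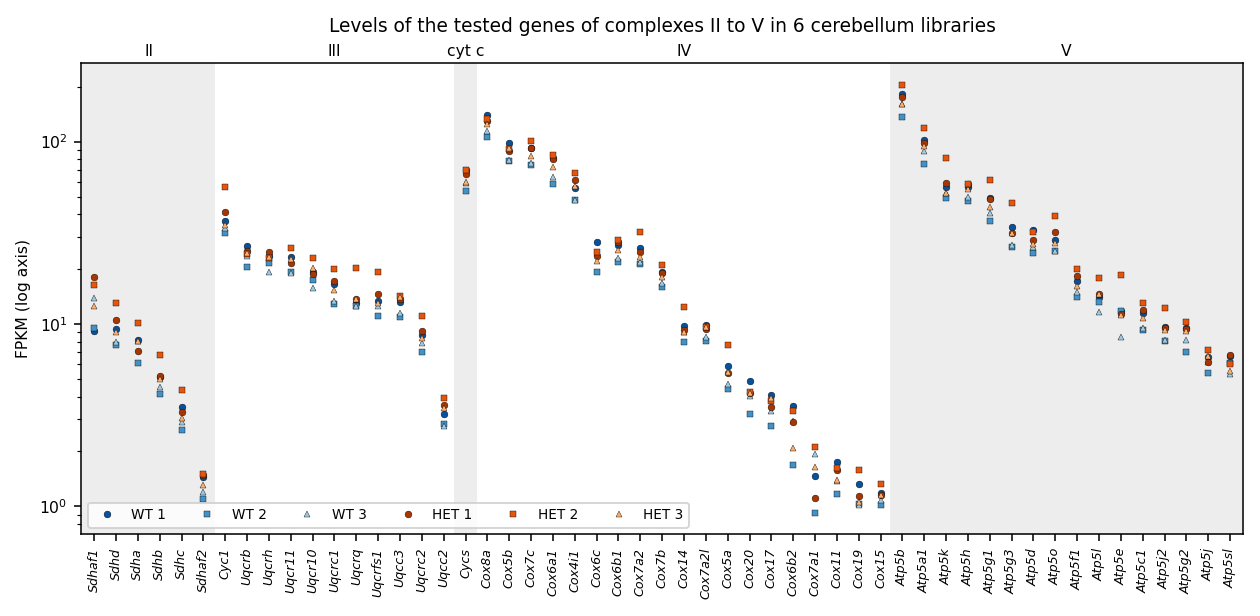
FPKM on a log axis of the 53 tested members in each of the 6 libraries, ordered within complexes II, III, cytochrome c, IV and V by the WT mean. Differences between genes, from Atp5b at 159 FPKM in WT down to genes near 1 FPKM, are larger than those between libraries, and HET replicate 2 is the highest point for 40 of the 53.

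The comparison of HET with WT asks whether loss of 1 Reln allele is accompanied by a change in these genes. No member passed an adjusted p of 0.05 (limma with an intensity trend, Benjamini-Hochberg over 6358 genes; the smallest adjusted p was 0.54, for Sdhaf1). Over all genes 5 passed, 0.0786%. At an unadjusted p under 0.05, limma gave 3 members that were higher in HET (Sdhaf1, Sdhd and Uqcc2; 5.66% of 53, against 2.58% of all genes) and 0 that were lower (against 0.755%). The mean of log2(FPKM + 1), the scale of every log2 difference below, was higher in HET for 52 of the 53 (98.1%, against 83.1% of all genes). The median difference was 0.19, against 0.083 over all genes. The 1 added to FPKM shrinks differences of low genes. With 0.1 added in its place, the medians were 0.20 and 0.11. In 5 members, Atp5l, Cox4i1, Uqcc2, Uqcc3 and Uqcrq, all HET libraries lay above all WT libraries (9.43%, against 4.81% of all genes), and in 0 they lay below (against 0.739%). Sdhd and Uqcc2 had been known from an earlier analysis of these data to be high in HET. Shares that count them are therefore descriptions.

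Part of this difference is shared with most genes. After scaling by the median of ratios over the tested genes, the median over all genes moved from 0.083 to -0.0014 and that of the members from 0.19 to 0.081. The mean was then higher in HET for 44 of 53 (83.0%, against 49.1% of all genes), and no gene of any kind passed the threshold. At an unadjusted p under 0.05, limma then gave Cox4i1, Sdhd and Uqcc2 (5.66% of 53, against 2.06% of all genes higher). Groups were apart, higher in HET, for 9 members (17.0%, against 5.74%): Atp5a1, Atp5g2, Cox4i1, Sdhb, Sdhd, Uqcc2, Uqcrc1, Uqcrc2 and Uqcrfs1. For 0 members were they apart and lower (against 5.14%). Sdhd and Uqcc2, known beforehand to be high in HET, count in both of these shares of members higher in HET. In bulk tissue, a difference in the number of cells of a type and a difference in RNA per cell cannot be told apart.

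**Figure D2:**
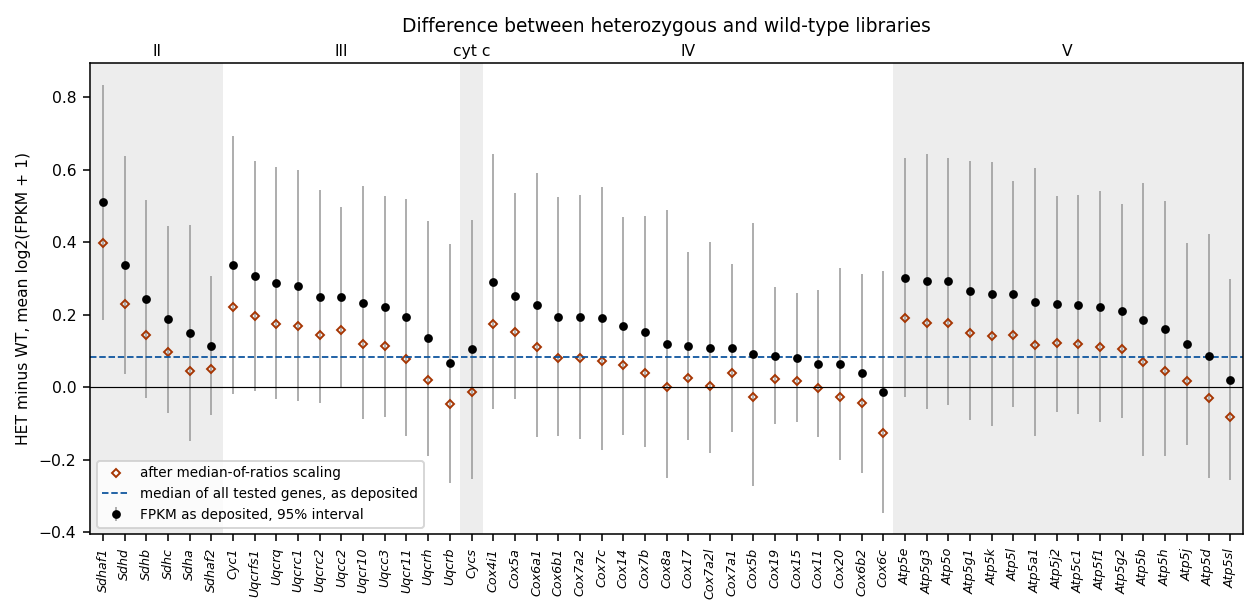
HET minus WT difference in mean log2(FPKM + 1) for the 53 tested members, with limma's 95% intervals as bars (n = 3 libraries per group), and after median-of-ratios scaling as open diamonds. The dashed line is the median of all tested genes, 0.083. All points but Cox6c lie above 0 as deposited, and most intervals include 0.

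Complex II had 6 tested members, all with a higher mean in HET and a median of 0.22 (0.12 after median-of-ratios scaling). Sdhd, the small membrane anchor subunit (chr9:50596357-50603812, minus strand, 4 exons), stood at 9.34, 7.68 and 7.98 FPKM in WT replicates 1 to 3 and at 10.5, 13.0 and 9.09 in HET replicates 1 to 3. HET replicate 3 lay below WT replicate 1, so the groups overlapped. The difference was 0.34 (SE 0.15, limma unadjusted p 0.029, adjusted p 0.90), 0.23 after median-of-ratios scaling, 0.21 without HET replicate 2 and 0.16 without both WT replicate 2 and HET replicate 2. The 2-sided exact permutation test of log2(FPKM + 1) gave p = 0.2, where 3 against 3 libraries cannot go below 0.1. Sdhd, and Cyc1 and Uqcc2 below, were known from an earlier analysis of these data to be high in HET. Their p-values are therefore descriptions. Sdhaf1, a factor needed for the iron-sulfur clusters of Sdhb, had the largest difference of all members. It stood at 9.10, 9.51 and 13.8 FPKM in WT and at 18.2, 16.4 and 12.6 in HET libraries. WT replicate 3 lay above HET replicate 3, and the difference was 0.51 (SE 0.16, limma unadjusted p 0.0026, adjusted p 0.54), or 0.40 after scaling. Sdhaf1 is a gene of 1 exon (chr7:30321406-30323895, minus strand) whose exon overlaps that of E130208F15Rik on the other strand. The library kit was stranded, but the strand setting of the quantification is not given in the sources used here, so reads of the overlap may not be told apart. The smallest difference of the complex on this scale, which understates that of low genes, was that of Sdhaf2, at 0.11 (SE 0.10). Sdhaf2 encodes the factor that attaches the flavin to Sdha. As a ratio of mean FPKM in HET to WT, Sdha was lower, at 1.13 against 1.15 for Sdhaf2.

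Complex III had 11 tested members, all with a higher mean in HET, and the highest median of the 4 complexes, 0.25 (0.14 after scaling). Cyc1, the cytochrome c1 subunit that hands electrons to cytochrome c (chr15:76343523-76346260, plus strand), stood at 36.9, 31.5 and 33.8 FPKM in WT and at 41.0, 56.0 and 35.0 in HET libraries. HET replicate 2 was far above the others, and HET replicate 3 lay below WT replicate 1. The difference was 0.34 (SE 0.18), the largest of the subunits of complex III, with an exact permutation p of 0.2. Without HET replicate 2 it was 0.15, and without both HET replicate 2 and WT replicate 2 0.099. Uqcc2, an assembly factor for the mitochondrially encoded cytochrome b (chr17:27122663-27133916, minus strand), was low, at 3.2, 2.82 and 2.75 FPKM in WT and 3.61, 3.91 and 3.44 in HET libraries. Its groups did not overlap, with a difference of 0.25 (SE 0.12, limma unadjusted p 0.050, adjusted p 0.90, exact permutation p 0.1, the smallest possible). Uqcc3, an assembly factor of the same complex, stood at 13.1, 10.96 and 11.5 FPKM in WT and at 13.6, 14.2 and 14.1 in HET libraries, apart by a narrow gap (difference 0.22, SE 0.15) and overlapping after median-of-ratios scaling. Uqcrq, a small subunit next to cytochrome b, stood at 13.1, 12.5 and 12.5 FPKM in WT and at 13.7, 20.4 and 13.8 in HET libraries. Its groups were apart, with HET replicate 2 far above the rest and the other HET libraries close to WT replicate 1 (difference 0.29, SE 0.16). They overlapped after scaling, and without HET replicate 2 the difference was 0.11. The smallest difference was that of Uqcrb, 0.07 (SE 0.16), which was -0.05 after median-of-ratios scaling. Cycs, the cytochrome c that carries electrons from complex III to IV, stood at 69.7, 53.8 and 59.5 FPKM in WT and 66.0, 70.2 and 59.9 in HET libraries, a difference of 0.10 (SE 0.18) and of -0.01 after scaling.

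Complex IV had 19 tested members, 18 of them with a higher mean in HET, and the lowest median, 0.11 (0.025 after scaling). Its 10 ubiquitous subunits had a median of 0.19 and its 6 tested assembly factors of 0.084. The scale understates differences of low genes, among them Cox11, Cox15 and Cox19 of these factors, at 1.1 to 1.4 FPKM in WT. Cox4i1, the subunit through which ATP inhibits the oxidase, stood at 55.6, 48.0 and 48.0 FPKM in WT and at 61.5, 67.6 and 56.9 in HET libraries. Its groups were apart, with a difference of 0.29 (SE 0.18), the largest of the complex on this scale, and of 0.17 after scaling. As a ratio of mean FPKM in HET to WT, Cox5a was higher, at 1.24 against 1.23 for Cox4i1. An exon of Cox4i1 overlaps one of Emc8 on the other strand, as exons of 19 members overlap another gene's on the opposite strand. Cox8a, the highest of the complex, stood at 139, 106 and 114 FPKM in WT and at 130, 134 and 125 in HET libraries (difference 0.12, SE 0.18). Cox6c was the only tested member with a lower mean in HET. It stood at 28.1, 19.2 and 24.6 FPKM in WT and at 23.5, 24.8 and 22.1 in HET libraries, with a difference of -0.01 (95% interval -0.35 to 0.32), and of -0.13 after scaling. Among the assembly factors, the largest difference was that of Cox14, 0.17 (SE 0.15), and the smallest was that of Cox20, a chaperone of the mitochondrially encoded subunit 2, 0.06 (SE 0.13).

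Complex V had 16 tested members, all with a higher mean in HET and a median of 0.23 (0.12 after scaling). Atp5b stood at 182, 136 and 160 FPKM in WT and at 175, 205 and 162 in HET libraries, which overlapped (difference 0.19, SE 0.19). Atp5e, the small epsilon subunit of the central stalk, had the largest difference, 0.30 (SE 0.16). It stood at 11.8, 11.8 and 8.50 FPKM in WT and at 11.3, 18.5 and 11.1 in HET libraries, where HET replicate 2 alone was above the WT libraries. Without HET replicate 2 its difference was 0.076, below those of Atp5l (0.16) and Atp5g2 (0.16), and without both WT replicate 2 and HET replicate 2 it was 0.15. Atp5l, subunit g of the membrane part, stood at 14.1, 13.2 and 11.7 FPKM in WT and at 14.6, 17.9 and 14.6 in HET libraries, apart by a narrow gap (difference 0.26, SE 0.16) and overlapping after scaling. Atp5l has 13 pseudogene copies with at least 90% identity over at least 80% of its coding sequence, so its reads may be split among copies. Such copies were found for 22 members, with 9 for Cycs and 5 each for Atp5h and Cox7c. Atp5d and Atp5j had the smallest differences of the F1 head and of the stalk and membrane subunits, 0.09 (SE 0.17) and 0.12 (SE 0.14). Atp5sl, named for its likeness to an ATP synthase gene and not known as a subunit, had 0.02 (SE 0.14).

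Where a subunit has isoforms, the ratio of isoform to reference differed between the groups by less than the SD of the HET libraries in all 6 pairs tested. The 3 genes for the same c-ring protein, Atp5g1, Atp5g2 and Atp5g3, encode different import sequences. Atp5g1 stood at 145% ± 5.9 of Atp5g3 in WT and at 142% ± 10.01 in HET libraries (SD, n = 3; exact permutation p 0.7). Atp5g2 stood at 28.1% ± 1.8 and 27.1% ± 4.0 of Atp5g3 (SD, n = 3; exact permutation p 0.8). Cox7a1, the heart and muscle isoform, stood at 6.26% ± 2.4 of Cox7a2 in WT and 6.05% ± 1.4 in HET (SD, n = 3; exact permutation p 1). Cox6b2, the testis isoform, stood at 11.2% ± 3.1 of Cox6b1 in WT and 10.03% ± 1.8 in HET libraries (SD, n = 3; exact permutation p 0.6). Cox4i2, the isoform known from lung and hypoxia, stood at 0.46% ± 0.015 of Cox4i1 in WT and 0.40% ± 0.083 in HET libraries (SD, n = 3; exact permutation p 0.4). Cox8b, the muscle isoform, stood at 0.32% ± 0.19 of Cox8a in WT and 0.30% ± 0.11 in HET (SD, n = 3; exact permutation p 1). All 6 adjusted p were 1 (Benjamini-Hochberg over these 6), and 3 against 3 libraries cannot show that ratios are equal.

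Of the 12 members not tested, 8 are Sdhaf3, Sdhaf4, Uqcc1, Cox10, Cox16, Cox18, Cox4i2 and Atp5s, at 0.03 to 1.27 FPKM in every library. The other 4 are the isoform genes Cox8b, Cox7b2, Cox8c and Cox6a2, of which Cox7b2 and Cox8c stood at no more than 0.0303 FPKM in any library.

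Cox6a2 differed from all other members. This gene encodes the heart and skeletal muscle isoform of the subunit whose ubiquitous form is Cox6a1 (chr7:128205435-128206387, minus strand, 3 exons). It stood at 0, 0.080 and 0.075 FPKM in WT replicates 1 to 3 and at 0, 1.66 and 0.047 in HET replicates 1 to 3. Only HET replicate 2 was high, with about 30 reads at its approximate depth, against at most about 1.5 in the other libraries. In HET replicate 2 it was 1.97% of Cox6a1, against at most 0.14% elsewhere. Ranked by the ratio of HET replicate 2 to the highest other library, with 0.1 FPKM added to both, Cox6a2 was first of the 24497 genes with a value in every library (ratio 9.80). The next 2 genes in that library were the small RNAs Mir1966 (7.83) and Snord71 (6.77), and the first gene by the same measure in each of the other 5 libraries was a small RNA. Cox6a1 did not stand out there, at 84.4 FPKM against 58.5 to 81.0 in the other libraries, nor did the muscle isoform Cox8b, at 0.54 against 0.17 to 0.75 FPKM. The muscle markers Acta1, Ckm, Myh1, Myh6 and Tnnt2 had a summed level of 0.768 FPKM in HET replicate 2, above the 0.365 to 0.498 FPKM of the other libraries. Acta1 made up most of it, at 0.746 FPKM there against 0.343 to 0.478 FPKM. Tnnt2 was also highest there, at 0.0116 FPKM, and Ckm was at 0. The part of muscle RNA in the Cox6a2 value was not tested. An exon of Cox6a2 overlaps one of Itgad on the other strand.

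Most genes listed for the integrated stress response, the program driven by the transcription factor Atf4, were also high in HET replicate 2. Of the 16 genes, 15 were highest there, against 56.3% of all tested genes. Slc7a11 was not, at 0.591 FPKM there and 0.754 FPKM in WT replicate 1. Pck2 rose little, at 2.17 FPKM there against 1.65 to 1.89 FPKM elsewhere. This list of 16 genes was drawn up after their values in that library had been seen. Their level there, and any difference between the groups that includes it, is therefore a description. Gdf15 and Fgf21, hormones released on mitochondrial stress, stood at 0.494 and 0.161 FPKM there, against at most 0.034 and 0.025 FPKM elsewhere. Mthfd2, a mitochondrial enzyme of folate metabolism, stood at 1.20 FPKM, against 0.356 to 0.506 FPKM. Slc7a3, an arginine and lysine transporter, stood at 1.20 FPKM, against 0.102 to 0.222 FPKM. Atf4 itself stood at 60.2 FPKM there, against 35.4 to 52.6 FPKM. Of the 16 genes, 8 reached the level for testing between the groups. All 8 had a higher mean in HET (against 83.1% of all genes), with a median of 0.20. After median-of-ratios scaling 7 of 8 did (against 49.1%), with a median of 0.12. These counts and medians include HET replicate 2, where the genes had been seen to be high. Chac1, which encodes an enzyme that degrades glutathione, stood at 0.605, 0.760 and 0.770 FPKM in WT and at 1.19, 2.73 and 0.849 in HET libraries, without overlap. It was the 1 gene of all tested that was past the threshold and higher in HET (difference 0.53, SE 0.12, limma adjusted p 0.039), a call lost after median-of-ratios scaling, where no gene passed. The mean of Chac1 was 0.712 FPKM in WT and 1.59 FPKM in HET libraries. It thus reached the 1 FPKM for testing, and the count of 8 above, only through the HET libraries. With a minimum of 0.5 FPKM the call was also lost, as 0 genes passed. Ddit3, a transcription factor of the same program, stood at 2.68, 2.29 and 2.32 FPKM in WT and at 3.28, 4.93 and 2.71 in HET libraries, also apart (difference 0.41, SE 0.13, limma adjusted p 0.57). Atf4 overlapped between the groups (difference 0.19, SE 0.18, limma adjusted p 0.90).

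**Figure D3:**
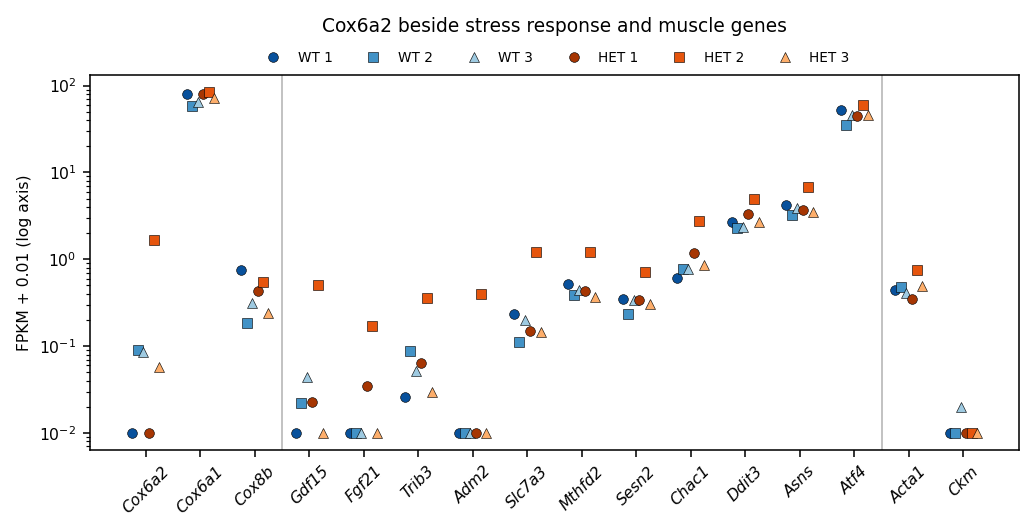
FPKM plus 0.01 on a log axis in each of the 6 libraries for Cox6a2, Cox6a1 and Cox8b (left), genes of the integrated stress response (middle) and the muscle markers Acta1 and Ckm (right). HET replicate 2 stands at 1.66 FPKM for Cox6a2, while the other libraries do not pass 0.080 FPKM, and it is also the highest point for each middle gene. Slc7a11, the gene of that list that is not highest there, is not drawn.

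Other genes of energy metabolism were described by counts and medians, with 0 past the adjusted threshold (limma). These counts stand against 83.1% of all genes with a higher mean in HET, and 49.1% after median-of-ratios scaling. Of the 36 tested subunits of complex I, the entry point for electrons from NADH, 36 had a higher mean in HET, with a median of 0.16 (30 and 0.056 after scaling). The 18 tested assembly genes outside the symbol rule gave 17 and a median of 0.097 (10 and 0.013 after scaling). The 15 tested enzymes of the tricarboxylic acid cycle gave 14 and a median of 0.15 (13 and 0.042 after scaling). Mitochondrial import and carrier genes gave 27 of 27, with a median of 0.16 (24 and 0.058 after scaling). The 6 tested regulators of mitochondrial genes gave 5, with a median of 0.066 (2 and -0.019 after scaling). Mitochondrial ribosomal proteins gave 66 of 68, with a median of 0.16 (57 and 0.064 after scaling). Cytosolic ribosomal proteins, which are not mitochondrial, gave 78 of 80, with a median of 0.20 beside the 0.19 of the members (71 and 0.087 after scaling).

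Relative to each gene's mean over the 6 libraries, the median of the members was 0.071, -0.22 and -0.13 in WT replicates 1 to 3 and 0.057, 0.25 and -0.020 in HET replicates 1 to 3. WT replicate 1 thus lay above HET replicates 1 and 3, and the groups overlapped. The same medians over cytosolic ribosomal proteins were 0.073, -0.22 and -0.14 in WT and 0.063, 0.22 and 0.022 in HET libraries, the same order as for the members. The order differed in part in other lists. HET replicate 1 lay above WT replicate 1 for mitochondrial ribosomal proteins, WT replicate 3 above HET replicate 3 for enzymes of the tricarboxylic acid cycle, and the regulators were highest in WT replicate 1. HET replicate 2 was the highest library for 40 of the 53 members (75.5%, against 56.3% of all genes), and WT replicate 2 the lowest for 43 (81.1%, against 78.4%). After median-of-ratios scaling, WT replicate 3 was the lowest for 29 (54.7%, against 19.0%) and HET replicate 2 the highest for 23 (43.4%, against 23.5%). All 4 nuclear retained RNAs of a list added after values had been seen had a lower mean in HET. Malat1 stood at 426, 677 and 646 FPKM in WT and at 428, 372 and 304 in HET libraries. Members are short, with a median transcript of 851.5 bases against 2784 over tested genes, and short genes had larger differences. Among genes under 1000 bases the median was 0.15 over all genes and 0.19 over the 29 members, and from 1000 to 2000 bases 0.12 and 0.24 (13 members). Some cell markers moved with the members. The 5 oligodendrocyte markers all had a higher mean in HET, with a median of 0.26 and a summed level of 101 to 163 FPKM in WT and 132 to 180 in HET libraries. Of the 5 microglia markers, the 3 tested were higher too, with a median of 0.30 and a summed level of 5.66 to 9.83 FPKM in WT and 7.71 to 13.6 in HET libraries. Both sums were lowest in WT replicate 2 and highest in HET replicate 2. All 5 astrocyte and Bergmann glia markers had a higher mean in HET, with a median of 0.16 (3 of 5 and 0.048 after scaling). Their summed level was 50.6 to 80.2 FPKM in WT and 65.4 to 85.7 in HET libraries, again lowest in WT replicate 2 and highest in HET replicate 2. All 5 Purkinje cell markers had a higher mean in HET (median 0.15). Of the 5 granule cell markers 3 did (median 0.015), and 0 after scaling (median -0.075). Of the choroid plexus markers, 4 were tested and 0 had a higher mean in HET. Kcne2, Sostdc1 and Kcnj13 had HET means of 0.44, 0.93 and 0.75 FPKM and reached the level for testing only through WT libraries. That tilts the count toward lower in HET. Of the 4 blood markers, 3 were tested and 0 were higher in HET, with a summed level of 53.3 to 147 FPKM in WT and 58.7 to 99.6 in HET libraries. The part of these cell markers, of nuclear RNA and of transcript length in the members' difference was not tested.

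**Figure D4:**
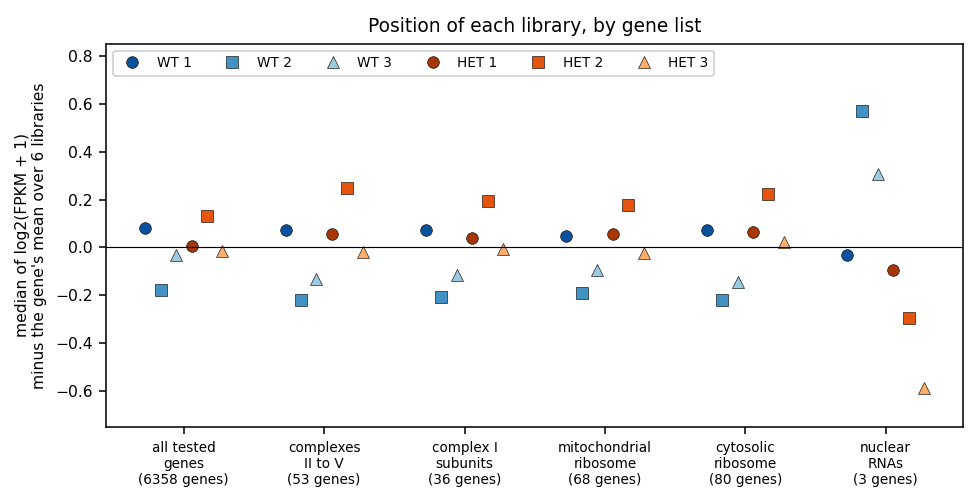
Median over each list of log2(FPKM + 1) minus the gene's mean over the 6 libraries, 1 point per library, for all tested genes, the members, complex I subunits, mitochondrial and cytosolic ribosomal proteins and 3 nuclear retained RNAs. WT replicate 2 is lowest and HET replicate 2 highest in the first 5 lists, where WT replicate 1 lies above HET replicate 3.

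Single libraries moved these values. Without HET replicate 2 the members' median fell from 0.19 to 0.11 (49 of 53 higher, against a median of 0.037 over all genes), and without WT replicate 2 it was 0.13 (47 of 54 higher, against 0.013). Without both it was 0.051 (39 of 53 higher), against -0.034 over all genes. These 2 libraries were picked for being lowest in WT and highest in HET, so leaving them out lowers the difference by itself. After median-of-ratios scaling, WT replicate 2 was lowest for 18.4% of all genes and HET replicate 2 highest for 23.5%. Members with groups apart and higher in HET numbered 44 without WT replicate 1, against 39.3% of all genes, and 20 without HET replicate 3, against 19.6%. No setting gave a member past the adjusted threshold in limma.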

How the data were processed

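RNA-seq of total RNA was done with a stranded kit and single-end reads, per the labels' protocols. The authors filtered out mitochondrial and ribosomal sequences, trimmed 2 bases from the 5′ end, aligned to mm10 with TopHat2 and Bowtie 1 and quantified with Cufflinks, giving deposited FPKM values, 1 library per file, per the labels' protocols. Cuffdiff 2.1.1 was their own test, per the submitters' processing notes, and was not used here. Neither the strand setting nor the annotation release was given in the sources used here. Because FPKM is relative to the library total, a few abundant RNAs can shift all other genes.

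Groups came from the sample titles. In HET replicate 2, 40 values read as dates, among them Idh2 and no member, and those genes were left out. The 6358 genes that reached 1 FPKM on average were tested on log2(FPKM + 1) with limma 3.58.1 (R 4.3.3), an intensity trend, all 6 libraries and Benjamini-Hochberg adjustment at 0.05. A difference on this scale understates that of low genes. The prior spread, taken from all tested genes along the trend, held 54.4 degrees of freedom, and each gene's own libraries 4. Each SE and p of limma thus rests mostly on the spread of other genes. The test was tested on simulated data. Isoform ratios and single genes were compared by 2-sided exact permutation tests. Depths are approximate, from steps in low values. Pseudogene copies were found with BLAST 2.17.0, and Python 3.11.15 with matplotlib 3.10.9, numpy 2.4.6 and pandas 2.3.3 made the figures and tables.

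Members and lists were chosen with earlier results of these data known. Named members were Sdhd, Cyc1 and Uqcc2, the most abundant member and those with the largest and smallest difference of each role group, those whose groups did not overlap, and the isoform pairs. Alternatives changed the pseudocount (0.1), the minimum (0.5 FPKM or none), the scaling (median of ratios or quantile), the trend, the block by replicate number and the libraries used.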

Additional observations from a re-analysis of the deposited data

How the results depend on the processing

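In all settings tried, 0 members passed the adjusted threshold in limma, with the smallest adjusted p between 0.082 (without HET replicate 3) and 1.00. At an unadjusted p under 0.05, limma gave 1 to 23 members. The 23 of 53 were those without WT replicate 1, where 929 of all 6309 genes were also under 0.05. The members' median stayed above 0, from 0.051 without both WT2 and HET2 to 0.29 without WT replicate 1. The replicate numbers did not pair the libraries: same-numbered libraries correlated in their deviations at -0.28, -0.52 and 0.14. With the replicate block, 13 of all genes passed, against 5 without it, and no member.

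All genes past the threshold numbered 1 with no filter on low values, 0 with a mean of at least 0.5 FPKM, 0 after median-of-ratios scaling, 0 after quantile normalization, 0 in limma without the trend, 67 without both WT2 and HET2, and 0 without both after median-of-ratios scaling. Leaving out 1 library gave 5 to 62. The share of all genes higher in HET was 49.1% after median-of-ratios scaling, 52.9% after quantile normalization, 34.7% without both WT2 and HET2, 47.6% without both after scaling, and 55.3% to 90.6% with 1 library left out. Their median was -0.034 without both. Members with groups apart in either direction numbered 9 after median-of-ratios scaling (against 10.9% of all genes) and 9 after quantile normalization (against 11.1%). Without both they numbered 8 of 53 (against 29.8%), and without both after scaling 27 of 53 (against 36.8%). Higher in HET were 9, 7, 5 and 25 of these. With 1 library left out, 5 to 44 members were apart, against 6.73% to 40.8% of all genes.

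Named members changed sign as follows (log2 differences). After median-of-ratios scaling: Atp5d -0.029, Atp5sl -0.081, Cox20 -0.028, Cox6b2 -0.042, Cycs -0.012 and Uqcrb -0.047. After quantile normalization: Atp5d -0.052, Atp5sl -0.093, Cox20 -0.016, Cox6b2 -0.037, Cox7a2l -0.0063, Cox8a -0.039, Cycs -0.076 and Uqcrb -0.063. Without both WT2 and HET2: Atp5b -0.018, Atp5d -0.059, Cox14 -0.031, Cox20 -0.065, Cox6b2 -0.29, Cox7a1 -0.18, Cycs -0.033, Sdha -0.095 and Uqcrb -0.017. Without both and after scaling: Atp5d -0.022, Cox20 -0.033, Cox6b2 -0.26, Cox7a1 -0.16 and Sdha -0.060. With 1 library left out, the ranges were -0.00086 to 0.20 for Atp5d, -0.056 to 0.084 for Atp5sl, -0.061 to 0.18 for Cox20, -0.18 to 0.20 for Cox6b2, -0.16 to 0.11 for Cox6c, -0.054 to 0.25 for Cox7a1 and -0.028 to 0.16 for Uqcrb. The cause was not tested. Reads behind a value can be given only approximately, since depth was estimated from weak steps and FPKM keeps no counts.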
